A study of Mus musculus with 4 samples.

Results

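The genes described here encode the ionotropic glutamate receptors, the ion channels that glutamate opens directly, and the auxiliary proteins that travel with them. The set was chosen by name: 30 genes for AMPA, kainate, NMDA and delta receptor subunits and their auxiliary subunits, all 30 of them among the 55471 genes of the deposited count table. Of these, 29 passed the filter on low counts and were tested, and Grin2c was too low to test. The cells were amacrine cells, the mostly inhibitory neurons that shape signals between bipolar and ganglion cells, taken by sorting from mouse retinas at postnatal days 6 to 7. Every mouse had the strain label C57BL6 and carried the Gbx2-CreERT2-IRES-EGFP allele, in which the Gbx2 locus drives an inducible Cre recombinase and EGFP, together with the Ai9 reporter, which turns on tdTomato where Cre has acted. Both fractions were therefore of 1 genotype. They differed in whether EGFP was visible at the sort: GFP-negative cells (cell type 1 of the series) and GFP-positive cells (cell type 2). The sample titles carry TOM for the GFP-negative and GFP for the GFP-positive libraries. The sources used here do not give how or when Cre was induced. Each fraction is represented by 2 libraries, numbered 2 and 6 for GFP-negative and 2 and 3 for GFP-positive cells, and values per library follow that order throughout. The series text plans a sample of both fractions from every animal, and the labels tie no library to an animal. RNA came from 750 to 2500 sorted cells per sample.

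Amacrine cells are excited by glutamate released from bipolar cells. AMPA receptors, assembled from the GluA subunits that Gria1 to Gria4 encode, carry the fast part of that input, kainate receptors pass a further share, and NMDA receptors pair the obligatory GluN1 subunit with GluN2 or GluN3 subunits and respond more slowly. An AMPA receptor that lacks the edited GluA2 subunit lets calcium through. Auxiliary subunits (TARPs, cornichons, GSG1L and the CKAMP or Shisa proteins for AMPA receptors, Neto proteins for kainate receptors) set how receptors reach the surface and how fast they close.

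Total counts were 41040667 to 44689917 per library. Gbx2, the locus that drives EGFP, was at 28.7 and 55.5 CPM (the unit for read counts scaled to the effective library size) in the GFP-negative libraries and at 602 and 496 CPM in the GFP-positive libraries, the order that the fluorescence labels call for. All 14 amacrine markers of a fixed list were detected, and they summed to 5588 and 8057 CPM in the GFP-negative and 4751 and 3676 CPM in the GFP-positive libraries. Singly, these markers moved too: 12 of 14 had a log2 fold change below 0 (median -1.37), and 4 passed in edgeR as lower, namely Tfap2c, C1ql2, Gad1 and Gad2 (16.4-, 15.8-, 12.3- and 8.60-fold by the means, named after their values were seen). The 2 others were higher in both GFP-positive libraries. Slc6a9 was at 54.3, 31.4, 85.8 and 74.7 CPM, and Snap25 at 1007, 1120, 1713 and 1458 CPM. Pax6, at 1469, 2245, 1972 and 1286 CPM, overlapped between the fractions (these 3 also named after their values were seen). RNA of other retinal cells was present in each library and was unequal. The sum of 16 rod markers was 8465 and 2084 CPM in the GFP-negative libraries and 9749 and 16228 CPM in the GFP-positive libraries. The sum of 10 bipolar cell markers was 1096, 437, 1338 and 1862 CPM in that order. That of 10 retinal ganglion cell markers was 336, 381, 246 and 122 CPM. This list was mixed, with 7 markers lower and 3 higher in GFP-positive cells. Nefl was at 191, 240, 94.8 and 32.5 CPM, and Rbpms at 10.1, 7.35, 28.9 and 26.0 CPM (both named after their values were seen). The sum of 8 Müller glia markers was 1577, 2042, 670 and 815 CPM. Singly they were mixed as well, with 3 lower and 5 higher in GFP-positive cells (median log2 fold change 0.10). The sum of 11 endothelial and pericyte markers was 104, 78.8, 439 and 425 CPM, and 1 of them passed in edgeR as higher in GFP-positive cells. Among the Müller glia markers, 1 passed in edgeR as lower. Cone markers summed to 444, 113, 386 and 744 CPM, horizontal cell markers to 225, 87.1, 302 and 311 CPM, and microglia markers to 104, 69.2, 36.9 and 116 CPM. Of all the marker sums given, only those of cone and microglia markers overlapped between the fractions. No marker of any list was at 0 in every library, and those of neurons at 0 in a single library were the rod gene Guca1a (GFP-negative 6) and the ganglion cell gene Pou4f2 (GFP-positive 3). Of the 11 endothelial and pericyte markers 8 were tested, and 6 of these overlapped between the fractions. Cdh5 and Tek were at 0 in GFP-negative 2 and GFP-positive 2, and Kcnj8 in GFP-positive 2 and 3. Pdgfrb was at 0 in GFP-negative 2 and Cldn5 in GFP-negative 6. The libraries numbered 2 had the closest rod sums, and their values are set side by side for the main differences. In sorted bulk samples, fewer cells of a type and less RNA per cell cannot be told apart.

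The differences that passed the test were all in auxiliary subunits of AMPA receptors. Of 13 auxiliary subunit genes, all tested, 3 were lower in GFP-positive cells (Cacng5, Cacng3 and Cnih3) and 0 were higher, at an adjusted p under 0.05 in edgeR's quasi-likelihood test over all 17940 genes tested. Over all genes tested, 1.10% passed, 0.870% as lower and 0.234% as higher, against 10.3% of the 29 tested members. Of the 16 pore-forming subunit genes tested, 0 passed in edgeR, and 9 had an unadjusted p under 0.05 (7 lower and 2 higher in GFP-positive cells). Of the 13 auxiliary subunit genes, 8 had an unadjusted p under 0.05 in edgeR (8 lower and 0 higher). Such an unadjusted p was found for 15 members as lower and 2 as higher, beside 7.34% and 5.24% of all genes tested. In edgeR's older legacy quasi-likelihood fit 0.268% of all genes passed, and 1 member, Cacng5, was among them. In DESeq2, another test on counts, 9 members were lower and 1 higher, beside 614 and 245 of all 27925 genes with a count. Those members included the pore-family genes Grik4, Grin2a, Grin2d and Grid1 and the kainate auxiliary gene Neto2, but not Cnih3. Grik4 also passed in edgeR with RLE scaling or a stricter filter. That only AMPA auxiliary genes passed thus depended on the setting. A log2 fold change below 0, that is lower in GFP-positive cells, was seen for 24 of the 29 tested members and for 47.6% of all genes tested. It was seen for 84.6% of the auxiliary and 81.2% of the pore-forming genes tested. In the reported fit these 2 groups thus differed in calls at the threshold more than in direction. The members had a median log2 fold change of -0.84, all genes tested one of 0.039. The part in this of what moved the amacrine and other markers was not tested. Members and lists were chosen with earlier results of these data known, so these counts describe the set and single it out from no other.

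**Figure D1:**
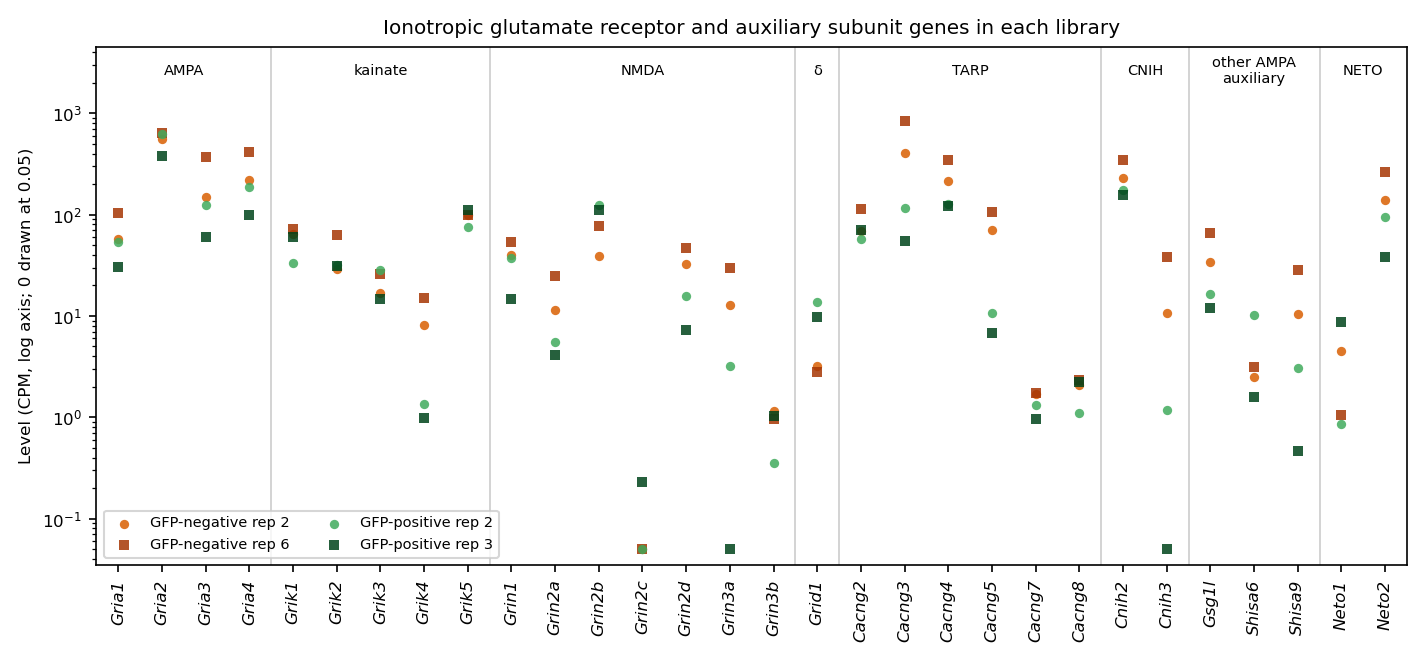
Level of each of the 30 genes in each of the 4 libraries, in CPM on a log axis, grouped by receptor family. Orange and brown symbols are GFP-negative cells (replicate numbers 2 and 6), light and dark green symbols GFP-positive cells (2 and 3), and a level of 0 is drawn at the bottom of the axis. Cacng3 fell from 405 and 841 CPM to 116 and 55.1 CPM, while Gria2 and Grik5 overlapped between the fractions.

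All 4 AMPA receptor subunit genes were expressed in every library. Gria2, which encodes the GluA2 subunit that blocks calcium entry once its RNA is edited, was at 553 and 640 CPM in GFP-negative and at 623 and 379 CPM in GFP-positive libraries. The fractions overlapped, and the log2 fold change was -0.25 with a 95% interval of -1.13 to 0.62 (edgeR adjusted p = 0.842). Gria4, which encodes GluA4, was at 221 and 417 CPM in GFP-negative and 186 and 97.9 CPM in GFP-positive libraries. Gria3, for GluA3, was at 149 and 370 against 125 and 59.8 CPM, and Gria1, for GluA1, at 57.2 and 103 against 53.6 and 30.3 CPM. For these 3 genes both GFP-positive libraries lay below both GFP-negative libraries, by a margin that was small between the libraries numbered 2. Their log2 fold changes were -1.17 ± 0.44 (standard error), -1.49 ± 0.51 and -0.93 ± 0.41, and none passed after adjustment (edgeR adjusted p = 0.320, 0.273 and 0.393).

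Levels of different genes were compared per exon length, as RPKM (CPM divided by the annotated exon length in kilobases), and each gene was expressed as a share of the summed RPKM of Gria1 to Gria4. Gria2 made up 37.3% and 25.5% of AMPA subunit RNA in GFP-negative libraries, and 44.0% and 47.8% in GFP-positive libraries. Gria4 made up 36.8% and 40.9% against 32.4% and 30.4%, and Gria3 15.9% and 23.2% against 13.9% and 11.9%. Gria1 stayed between 9.73% and 10.5% in all 4 libraries. Expressed as a ratio, Gria2 stood at 0.595 and 0.342 of the other AMPA subunits together in the GFP-negative libraries and at 0.786 and 0.917 in the GFP-positive libraries. The Gria2 shares did not overlap between fractions, but the GFP-negative libraries lay further from each other (37.3% and 25.5%) than the nearest libraries of the 2 fractions (37.3% and 44.0%). With 2 libraries against 2, an exact two-sided permutation test cannot go below p = 0.333, so shares are given as descriptions. Without the division by length (Gria2 has 15548 bases of annotated exons), its mean share was 49.1% in GFP-negative and 65.0% in GFP-positive cells. The summed AMPA level was 95.3 and 162 RPKM in GFP-negative and 91.1 and 51.0 RPKM in GFP-positive libraries.

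**Figure D2:**
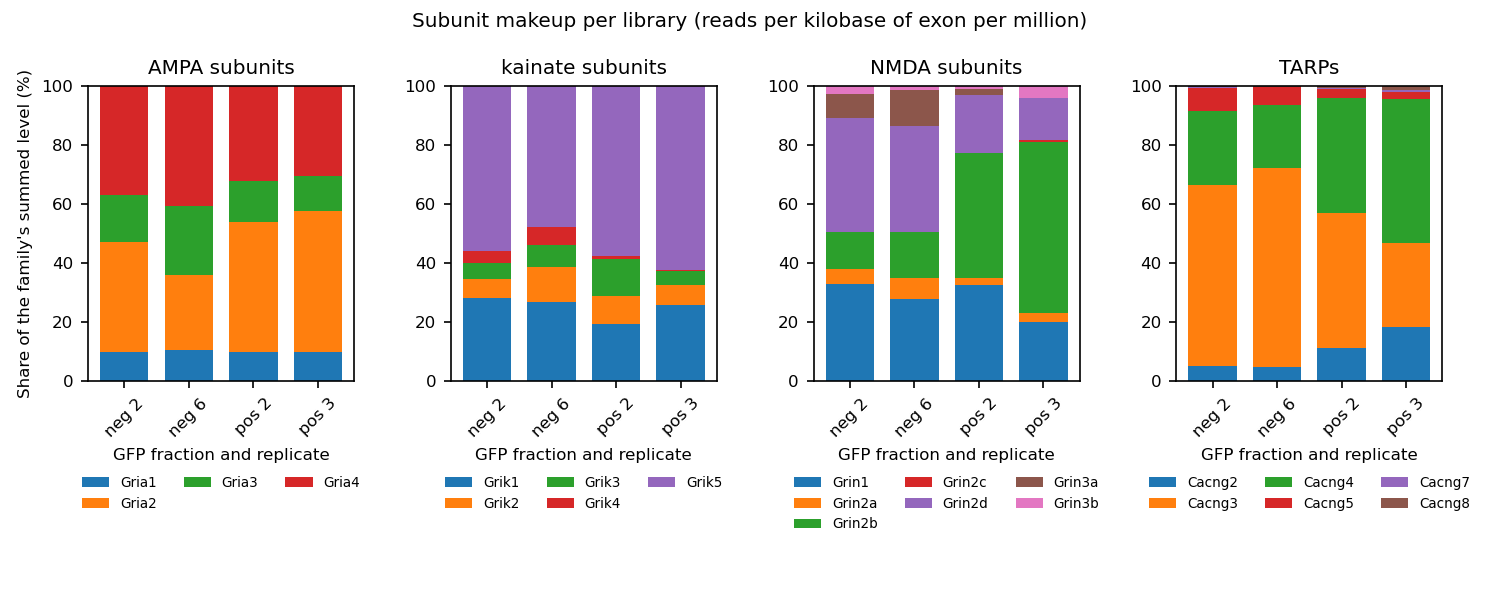
Makeup of the AMPA, kainate and NMDA receptor subunits and of the TARPs in each library, as the percent of each family's summed RPKM (vertical axis); neg and pos stand for GFP-negative and GFP-positive, followed by the replicate number. Grin2b took 12.5% and 15.6% of NMDA subunit RNA in the GFP-negative and 42.2% and 57.9% in the GFP-positive libraries, and Cacng3 took 61.2% and 67.5% against 45.6% and 28.6% of TARP RNA.

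TARPs (transmembrane AMPA receptor regulatory proteins, the products of 6 Cacng genes here) bind AMPA receptors, bring them to synapses and change how fast they close. Cacng5, which encodes the type II TARP γ-5, was at 70.0 and 106 CPM in GFP-negative and at 10.8 and 6.79 CPM in GFP-positive libraries. Both GFP-positive libraries were far below both GFP-negative libraries. The means were 88.1 ± 25.6 and 8.78 ± 2.81 CPM (SD, n = 2 per fraction), a 10-fold lower level in GFP-positive cells, with a log2 fold change of -3.33 ± 0.40 and an edgeR adjusted p of 0.0118. The gene (ENSMUSG00000040373) lies on the minus strand of chromosome 11 at 107874605 to 107915055 (GRCm38). Cacng3, for the type I TARP γ-3, was at 405 and 841 CPM in GFP-negative and at 116 and 55.1 CPM in GFP-positive libraries. Again the fractions did not overlap, and the means were 623 ± 309 and 85.4 ± 42.8 CPM, 7.29-fold lower in GFP-positive cells. The log2 fold change was -2.87 ± 0.51 (edgeR adjusted p = 0.0421), for a gene (ENSMUSG00000066189) on the plus strand of chromosome 7 at 122670492 to 122769393. Per length, Cacng3 and the cornichon gene Cnih2 had the highest mean levels of the 30 genes in GFP-negative cells, at 224 and 210 RPKM.

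Both calls rest on few libraries. When the library GFP-negative 6 or GFP-positive 3 was left out, neither gene passed (edgeR adjusted p = 0.115 and 0.0823 for Cacng5, 0.253 and 0.377 for Cacng3). The log2 fold changes were then -3.00 and -3.04 for Cacng5 and -2.24 and -2.44 for Cacng3, and of all genes tested 1 and 5 passed in those fits. Cacng3 also failed with GFP-positive 2 left out (edgeR adjusted p = 0.101), in the legacy quasi-likelihood fit (0.126), with no filter on low counts (0.0741) and in limma-voom (0.0527). Between the libraries numbered 2, whose rod marker sums were 8465 and 9749 CPM, Cacng5 stood at 70.0 against 10.8 CPM and Cacng3 at 405 against 116 CPM. The same pair was unequal in Müller glia sums (1577 and 670 CPM) and in endothelial and pericyte sums (104 and 439 CPM). Of all 4 libraries, GFP-negative 6 had the lowest rod sum and the highest level of both genes, and GFP-positive 3 the highest rod sum and the lowest level of both. The part of RNA from rods or from other cells in these differences was not tested.

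The other TARPs did not pass in edgeR. Cacng4, for γ-4, was at 214 and 343 CPM in GFP-negative and 127 and 121 CPM in GFP-positive libraries, with separate ranges and a log2 fold change of -1.17 ± 0.35 (edgeR adjusted p = 0.213), and it passed in DESeq2 (adjusted p = 0.0404). Cacng2, which encodes stargazin (γ-2), the TARP first described in the ataxic stargazer mouse, was at 68.7 and 114 against 57.2 and 69.6 CPM, and these ranges overlapped (-0.52, 95% interval -1.30 to 0.25). Cacng7 (γ-7) was low in all 4 libraries, at 1.70 and 1.73 against 1.31 and 0.967 CPM. Cacng8 (γ-8) was low too, at 2.10 and 2.35 against 1.09 and 2.25 CPM. As shares of TARP RNA per length, Cacng3 made up 61.2% and 67.5% in the GFP-negative and 45.6% and 28.6% in the GFP-positive libraries. Cacng4 took 25.2% and 21.4% against 38.9% and 48.7%, and Cacng2 5.24% and 4.60% against 11.3% and 18.2%. Per length, Cacng3 thus had the first rank among TARPs in both GFP-negative libraries and in GFP-positive 2, and Cacng4 in GFP-positive 3. In GFP-positive 2 this rank depended on length, as Cacng4 had more reads there than Cacng3 (5819 against 5291 counts). The summed TARP level per summed AMPA subunit level was 2.50 and 2.78 in GFP-negative and 1.00 and 1.36 in GFP-positive libraries. The part of RNA from other cells in this ratio was not tested.

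Cornichons, relatives of a cargo exporter of the endoplasmic reticulum, bind AMPA receptors and slow their closing. Cnih3 had 451 and 1367 counts in GFP-negative and 54 and 0 counts in GFP-positive libraries, that is 10.8 and 38.2 against 1.18 and 0 CPM. Both GFP-positive libraries were below both GFP-negative libraries, and the GFP-negative libraries differed from each other by a wide margin. The log2 fold change was -5.38 ± 1.01 (edgeR adjusted p = 0.0496), a size that depends on how the fit treats the 0. That count of 0 allows up to 0.0631 CPM (3 counts) in the library. This call lay at the threshold: it was lost with the library GFP-negative 6, GFP-positive 2 or GFP-positive 3 left out (edgeR adjusted p = 0.399, 0.0653 and 0.248), with no filter or a stricter one (0.0852 and 0.219) and in the legacy quasi-likelihood fit (0.320). It did not pass in DESeq2 (adjusted p = 0.388) or limma-voom (adjusted p = 0.383) either. Between the libraries numbered 2, Cnih3 stood at 10.8 against 1.18 CPM. Cnih3 (ENSMUSG00000026514) lies on the plus strand of chromosome 1 at 181352628 to 181460641. Its close relative Cnih2 was abundant in both fractions, at 227 and 349 CPM in GFP-negative and 173 and 157 CPM in GFP-positive libraries, and did not pass (log2 fold change -0.80, 95% interval -1.58 to -0.021, edgeR adjusted p = 0.382). Per AMPA subunit RNA, the cornichons together stood at 1.78 and 1.66 in GFP-negative and 1.39 and 2.25 in GFP-positive libraries, which overlap.

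The promoters of the auxiliary subunit genes that passed and whose start sites match between RefSeq and GENCODE (Cacng5 and Cnih3) are shown with that of Cnih2, the cornichon gene that stayed abundant in both fractions. Each is the 250 bases before the RefSeq transcription start (GRCm38.p6), written 5′ to 3′ on the gene's strand, with capitals marking the GC box GGGCGG or its complement CCGCCC. The windows are chr11:107915056-107915305 (minus strand), chr1:181352378-181352627 (plus strand) and chr19:5098522-5098771 (minus strand).
Cacng5: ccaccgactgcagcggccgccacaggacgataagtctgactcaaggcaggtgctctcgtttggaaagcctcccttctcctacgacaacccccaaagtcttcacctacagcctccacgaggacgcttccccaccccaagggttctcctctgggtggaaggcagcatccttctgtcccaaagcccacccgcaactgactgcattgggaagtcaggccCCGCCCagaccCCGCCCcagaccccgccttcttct
Cnih3: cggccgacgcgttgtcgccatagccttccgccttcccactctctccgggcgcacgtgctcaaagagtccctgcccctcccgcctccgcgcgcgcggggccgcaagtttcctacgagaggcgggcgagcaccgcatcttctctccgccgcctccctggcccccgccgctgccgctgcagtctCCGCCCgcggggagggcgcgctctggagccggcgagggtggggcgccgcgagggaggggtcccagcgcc
Cnih2: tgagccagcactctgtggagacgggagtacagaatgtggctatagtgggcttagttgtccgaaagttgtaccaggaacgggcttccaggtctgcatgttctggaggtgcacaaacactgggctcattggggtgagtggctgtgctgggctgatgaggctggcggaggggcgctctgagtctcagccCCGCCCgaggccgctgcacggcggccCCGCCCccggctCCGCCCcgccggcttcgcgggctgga
The GC box was found 2 times in the Cacng5 window, 1 time in that of Cnih3 and 3 times in that of Cnih2. Over all 32851 RefSeq windows of this length, 32.7% held it on either strand. The E-box CANNTG occurred 2 times upstream of Cacng5, 1 time upstream of Cnih3 and 0 times upstream of Cnih2, and 66.2% of all windows held it. The homeobox core TAATTA, present in 4.84% of all windows, and the TATA box TATAAA, in 12.4%, were in none of the 3 windows on either strand. The CG dinucleotide occurred 12, 36 and 17 times in the windows of Cacng5, Cnih3 and Cnih2, against a median of 6 over all windows. A GC box holds a CG dinucleotide, and an E-box match can share bases with either. Matches describe the letters only.

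**Figure D3:**
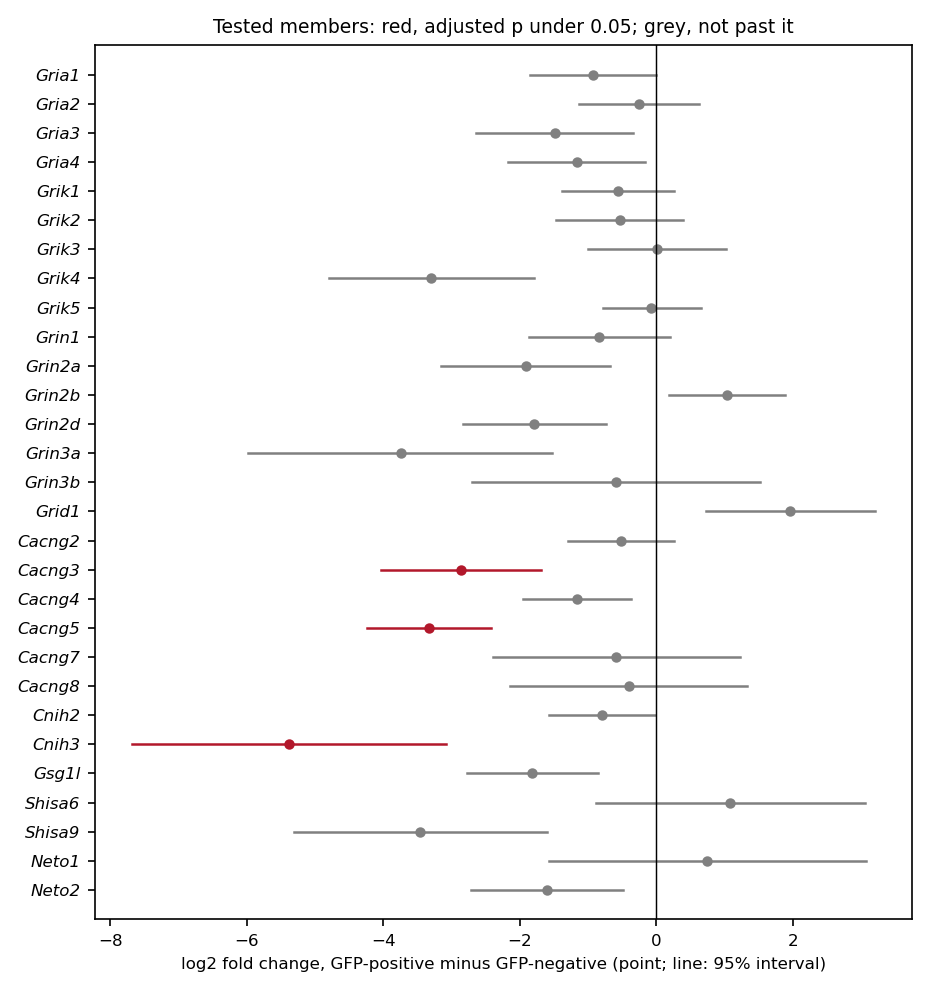
Log2 fold change (horizontal axis, GFP-positive minus GFP-negative) of the 29 tested genes, with the 95% interval of the edgeR fit. The genes in red, Cacng3, Cacng5 and Cnih3, passed an adjusted p of 0.05, and the others, in grey, did not, among them Grin2b at 1.03 and Grid1 at 1.96.

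The remaining AMPA auxiliary genes pointed in both directions and none passed. Gsg1l, for a claudin-like protein that slows the recovery of AMPA receptors, was at 34.3 and 66.2 CPM in GFP-negative and 16.4 and 12.1 CPM in GFP-positive libraries (log2 fold change -1.82 ± 0.42, edgeR adjusted p = 0.101). Shisa9, which encodes CKAMP44, a protein that deepens AMPA receptor desensitization, was at 10.5 and 28.4 against 3.08 and 0.463 CPM (-3.46 ± 0.81, edgeR adjusted p = 0.109). For both genes the fractions were separate. Both did pass with GFP-negative 2 left out and in DESeq2. Shisa6, a further member of the Shisa family, was at 2.51 and 3.10 CPM in GFP-negative and 10.3 and 1.60 CPM in GFP-positive libraries, so a single library was high and the fractions overlapped.

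Kainate receptor RNA was led by Grik5 in both fractions. Grik5 encodes GluK5, a high-affinity subunit that forms channels only together with GluK1 to GluK3, and it was at 98.5 and 98.6 CPM in GFP-negative and 75.4 and 112 CPM in GFP-positive libraries. The fractions overlapped, with a log2 fold change of -0.073 and a 95% interval of -0.79 to 0.65, which does not reach the value of Cacng5. Grik5 took 55.9% and 47.7% of kainate subunit RNA per length in GFP-negative and 57.8% and 62.4% in GFP-positive libraries. Grik1, for GluK1, a subunit that OFF bipolar cells also use, was at 64.4 and 72.2 against 32.9 and 60.0 CPM and was second in share in every library (19.4% to 28.1%). The bipolar marker sums given above ran from 437 to 1862 CPM, and the library lowest in that sum, GFP-negative 6, had the highest Grik1 level, while within the GFP-positive fraction the library with the higher sum had the higher level. The part of bipolar RNA was not tested. Grik2 (GluK2) was at 28.8 and 62.9 against 31.7 and 31.2 CPM, and Grik3 (GluK3) at 17.0 and 25.9 against 28.3 and 14.6 CPM. Both overlapped between the fractions.

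Grik4 was the kainate subunit with the largest difference. It encodes GluK4, the other high-affinity subunit, and had 343 and 536 counts in GFP-negative against 62 and 47 in GFP-positive libraries (8.20 and 15 against 1.36 and 0.988 CPM). The fractions were separate, with a mean 9.88-fold lower in GFP-positive cells and a log2 fold change of -3.30 ± 0.66, but the edgeR adjusted p of 0.0640 missed the threshold. It passed with RLE scaling (edgeR adjusted p = 0.0416), with a stricter filter on low counts (0.0430) and in DESeq2 (adjusted p = 6.08e-06). It did not pass in the other alternatives, among them no filter (edgeR adjusted p = 0.0864), the legacy quasi-likelihood fit (0.126) and limma-voom (adjusted p = 0.158). The log2 fold change was -2.80 to -3.73 when each library was left out in turn. Grik4 made up 4.03% and 6.28% of kainate subunit RNA in GFP-negative and 0.901% and 0.477% in GFP-positive libraries.

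Neto proteins bind kainate receptors and slow their closing. Neto2 was at 140 and 265 CPM in GFP-negative and 95.2 and 37.9 CPM in GFP-positive libraries, with separate ranges (log2 fold change -1.61 ± 0.49, edgeR adjusted p = 0.227), and it passed in DESeq2 (adjusted p = 0.0434). Relative to the summed kainate subunits it stood at 0.672 and 1.08 against 0.615 and 0.178, so that the libraries numbered 2 lay close together. Neto1 was low, at 4.52 and 1.06 CPM in GFP-negative and 0.853 and 8.66 CPM in GFP-positive libraries, with more spread within the fractions than between them.

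Of the 6 NMDA receptor subunit genes tested, 0 passed in edgeR, and 4 had an unadjusted p under 0.05 (3 lower and 1 higher). Grin1, which encodes the obligatory GluN1 subunit, was at 39.9 and 53.5 CPM in GFP-negative and 37.4 and 14.8 CPM in GFP-positive libraries (log2 fold change -0.84, 95% interval -1.87 to 0.20). Grin2b, for GluN2B, the subunit that dominates in immature forebrain, went the other way, at 38.7 and 76.5 CPM in GFP-negative and 125 and 110 CPM in GFP-positive libraries. Both GFP-positive libraries were above both GFP-negative libraries, by a log2 fold change of 1.03 ± 0.37 that did not pass (edgeR adjusted p = 0.303). Grin2d, for the slowly closing GluN2D, was at 32.2 and 47.2 against 15.7 and 7.28 CPM (-1.79 ± 0.46, edgeR adjusted p = 0.148), and Grin2a, for GluN2A, which rises as many circuits mature, at 11.4 and 24.9 against 5.47 and 4.12 CPM (-1.91 ± 0.54, edgeR adjusted p = 0.188). Both were separate between fractions, and in DESeq2 both passed as lower.

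As shares of GluN2 RNA per length, Grin2b made up 22.2% and 26.6% in GFP-negative and 65.3% and 76.4% in GFP-positive libraries. Grin2d made up 68.8% and 61.3% against 30.7% and 18.9%, and Grin2a 9.02% and 12% against 3.97% in both GFP-positive libraries. Thus Grin2d was the leading GluN2 transcript in each GFP-negative library and Grin2b in each GFP-positive library. The gap between the fractions was wider than the gap between the libraries of either fraction. Without the division by length Grin2b, whose annotated exons span 24842 bases, made up 49.3% of GluN2 reads in GFP-negative and 88.0% in GFP-positive cells, so its rank in GFP-negative cells depended on length, while the higher share in GFP-positive cells was seen with and without it. Grin2b stood at 0.379 and 0.558 of Grin1 in the GFP-negative and at 1.30 and 2.89 in the GFP-positive libraries. Between the libraries numbered 2, whose rod marker sums were 8465 and 9749 CPM, Müller glia sums 1577 and 670 CPM and endothelial and pericyte sums 104 and 439 CPM, the Grin2b share was 22.2% against 65.3%. The part of RNA from other cells in the GluN2 shares was not tested.

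GluN3 subunits bind glycine and reduce calcium entry. Grin3a had 531 and 1069 counts in GFP-negative and 145 and 0 in GFP-positive libraries, or 12.7 and 29.9 against 3.17 and 0 CPM. The ranges were separate, and the log2 fold change of -3.75 ± 0.98 did not pass (edgeR adjusted p = 0.154) except with one of the libraries numbered 2 left out. Grin3b was at 1.15 and 0.950 CPM in GFP-negative and 0.350 and 1.03 CPM in GFP-positive libraries, and 32.1% of its exonic bases overlap Tmem259 on the other strand, whose reads cannot be told apart here because the strand setting of the counting is not given. The same limit touches 13.5% of Grin1 exons (Grin1os) and 9.66% of Grin2d exons (Gm45441). Grin2c, for GluN2C, had 0 counts in 3 libraries and 11 in GFP-positive 3.

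Grid1, which encodes the delta receptor GluD1, a synapse organizer more than a conducting channel, was, besides Grin2b, the pore-family gene with both GFP-positive libraries above both GFP-negative libraries. It was at 3.20 and 2.82 CPM in GFP-negative and 13.8 and 9.74 CPM in GFP-positive libraries, 3.90-fold higher by the means. The replicates of each fraction lay close together, yet the log2 fold change of 1.96 ± 0.54 did not pass in edgeR (adjusted p = 0.180), and it passed in DESeq2 as the 1 member called higher there. Among all 29 tested members, 20 had separate CPM ranges in the 2 fractions (18 lower and 2 higher, Grin2b and Grid1), beside 43.8% of all genes tested, 21.3% as lower and 22.5% as higher.

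**Figure D4:**
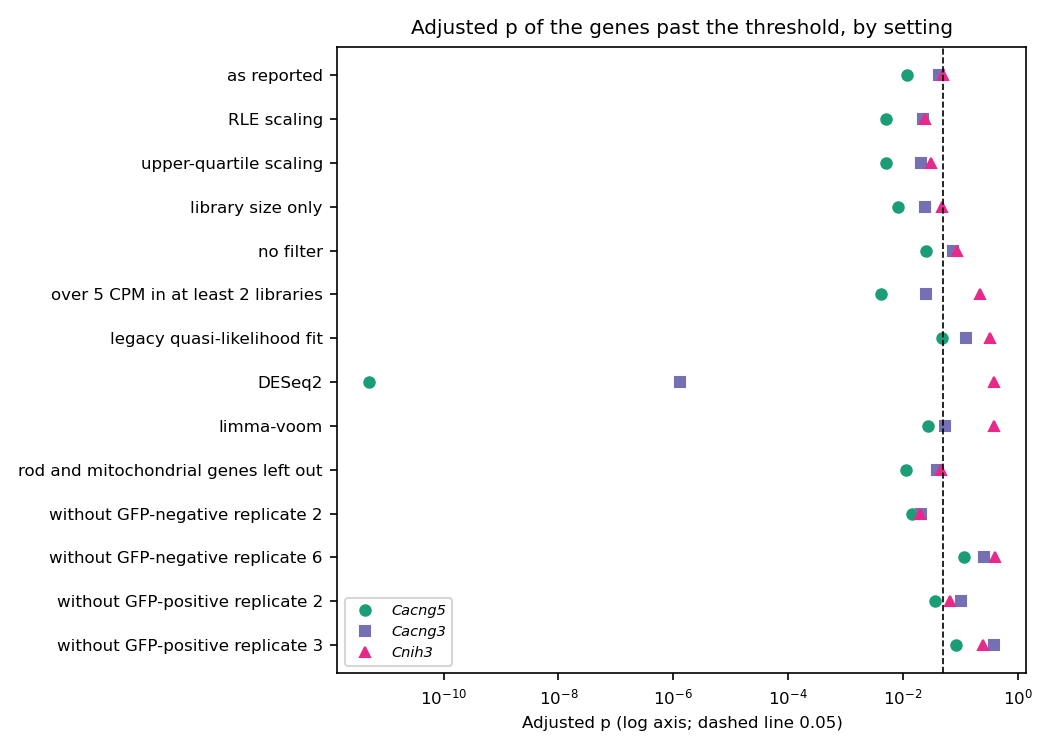
Adjusted p (horizontal log axis) of Cacng5, Cacng3 and Cnih3 under each setting of the analysis; the dashed line marks 0.05. Cacng5 passed in all settings shown except those that leave out GFP-negative 6 (0.115) or GFP-positive 3 (0.0823), while Cnih3 lay at 0.0496 in the reported fit.

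Of 55 further genes that anchor, assemble or edit these receptors, 53 were tested, 4 were lower in GFP-positive cells and 0 were higher (median log2 fold change -0.44). This is 7.55% of the tested genes of these lists, beside the 1.10% over all genes. Nptx2, a secreted pentraxin that clusters AMPA receptors from the presynaptic side, was at 119 and 152 CPM in GFP-negative and 17.0 and 8.85 CPM in GFP-positive libraries (log2 fold change -3.39 ± 0.40, edgeR adjusted p = 0.0118). Shisa8, which encodes CKAMP39, a further AMPA receptor auxiliary protein, was at 82.7 and 133 against 13.5 and 6.52 CPM (-3.43 ± 0.45, edgeR adjusted p = 0.0148). Homer2, a scaffold that links metabotropic receptors to calcium stores, was at 66.0 and 74.2 against 12.6 and 13.6 CPM (-2.42 ± 0.33, edgeR adjusted p = 0.0153). Adarb2, a relative of the editing enzymes without known editing activity of its own, was at 73.2 and 67.9 against 7.20 and 2.80 CPM (-3.82 ± 0.47, edgeR adjusted p = 0.0125). These 4 genes were separate between the fractions, and each lost its call with GFP-negative 6 left out (edgeR adjusted p = 0.0988 to 0.156) or GFP-positive 3 left out (0.0638 to 0.106). Homer2 also lost it with GFP-positive 2 left out (edgeR adjusted p = 0.0653), and Shisa8 and Adarb2 in the legacy quasi-likelihood fit (0.0622 and 0.0591).

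Most scaffolds and trafficking genes did not pass, and the same holds for all genes tested, of which 1.10% passed. Of 22 postsynaptic scaffold genes 21 did not (4.55% passed), and the median log2 fold change of the 22 was -0.17. Of 18 biogenesis and trafficking genes tested 17 did not (5.56% passed). The scaffold gene with the most reads, Dlgap1, was at 327 and 389 CPM in GFP-negative and 180 and 94.3 CPM in GFP-positive libraries (edgeR adjusted p = 0.187). Nsf, an ATPase that also binds GluA2, had the most reads of 19 biogenesis and trafficking genes (615 and 943 against 516 and 448 CPM), and Camk2d that of 4 CaM kinase II genes (546 and 536 against 414 and 353 CPM). Adarb1, which encodes ADAR2, the enzyme that edits the Gria2 transcript, was at 96.2 and 78.7 CPM in GFP-negative and 58.6 and 32.3 CPM in GFP-positive libraries (-0.95 ± 0.36, edgeR adjusted p = 0.327), and the more widely acting Adar at 69.7 and 100 against 80.3 and 27.3 CPM. Counts per gene do not show whether the Gria2 transcript was edited. Among relatives outside the 30 genes, Cnih1 led with 126 and 210 against 101 and 116 CPM, and Cacng6 had no count in any library.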

How the data were processed

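The authors deposited raw read counts per Ensembl gene for 4 libraries. Per the submitters' processing notes, the build was GRCm38 and the tools included limma, MultiQC, Trimmomatic and STAR 2.7.3a, with no roles stated. Counting tool, annotation and strand setting: not given in the sources used here. A second table, 4 scaled columns of the same libraries, was not used. Totals were 41040667 to 44689917 counts; the floor of 3 counts (0.0631 to 0.0838 CPM) covers counting error only.

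edgeR 4.0.16 (R 4.3.3) was run on the counts: TMM scaling (factors 0.873 to 1.1), a filter on low counts (filterByExpr, at least 10 counts, 15 in total), robust glmQLFit in its non-legacy form, Benjamini-Hochberg adjustment over 17940 genes, threshold 0.05, 2 residual degrees of freedom. The steps were run on simulated counts that held no unequal RNA from other cells, so that run does not cover such RNA. A standard error is the size of the log2 fold change divided by the root of its F statistic, and 95% intervals come from that fit. P-values measure the spread between these libraries. The non-legacy option was chosen with earlier results known, as were the members and gene lists; every member is named, and of the further lists each gene past the threshold, the most abundant one and Adarb1. Exon lengths and coordinates are from GENCODE mouse release 21 (GRCm38), which held 55230 of 55471 gene IDs; 27 symbols turned into dates were looked up by ID. RefSeq promoter windows were found for 18 of 30 members. Alternatives were other scalings and filters, DESeq2 1.42.0, limma-voom (limma 3.58.1), a legacy fit added after seeing the data, leaving out rod and mitochondrial genes, and leaving out each library.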

Additional observations from a re-analysis of the deposited data

How the results depend on the processing

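No paired analysis was possible because the fractions share only replicate number 2. Members lower in GFP-positive cells numbered 3 as reported, 1 with no filter, in the legacy quasi-likelihood fit and in limma-voom, 9 in DESeq2 (which also called 1 higher), and 0 to 6 when each library was left out. Cacng5 was the 1 gene in each of those fits with 1. In edgeR's quasi-likelihood test 0 members passed with GFP-negative 6 or with GFP-positive 3 left out. Over all genes, 156 were lower and 42 higher as reported, 82 and 24 with no filter, 35 and 13 in the legacy fit, 614 and 245 in DESeq2, 75 and 17 in limma-voom, and 1 to 230 and 0 to 106 without a library; fits without a library hold 3 libraries, so the lone one is assumed to vary like the others. Library size as the only scaling shifted the median log2 fold change of all genes by 0.17, and the members' median was then -0.68. Of the further pathway genes, 4 were lower as reported, 2 in the legacy fit, 0 to 4 without a library and 6 in DESeq2, which also called 1 higher.

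Of 372 member values under 13 alternatives, 13 changed sign, all of them members that did not pass: Grik3 (-0.026 with RLE scaling, -0.035 with no filter, -0.00019 in the legacy fit, -0.03 in DESeq2, -0.039 in limma-voom, -0.58 to 0.40 with a library left out), Grik5 (0.10 with library size only, -0.39 to 0.16 with a library left out), and, with a library left out, Gria2 (-0.67 to 0.057), Grik2 (-1.06 to 0.13), Shisa6 (-0.83 to 1.87) and Neto1 (-1.73 to 2.11). Read shares without division by length were 49.1% and 65.0% (GFP-negative and GFP-positive) for Gria2, and 49.3% and 88.0% for Grin2b among GluN2 genes. They were 40.7% and 47.8% for Grik5, and 56.4% and 29.3% for Cacng3 among TARPs. With the longest transcript as length, Gria2 was at 49.1% and Grik5 at 55.1% in GFP-positive cells. The cause was not tested, apart from gene length, which the alternative itself changes.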
